A study of Mus musculus with 6 samples.

Results

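Interferon-stimulated genes are the antiviral and immune genes that cells switch on when they sense interferon. A set of 43 of them was followed in the mouse liver RNA-seq data, matched to the table by gene symbol. All 43 were found among the 24346 rows of the deposited expression table, and all 43 were among the 11493 genes tested, those with a mean over the 6 livers of 0.5 FPKM or more. FPKM is the number of fragments per kilobase of transcript, scaled to 1000000 mapped fragments, and sets genes of different length on a common scale.

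The comparison asks whether these genes differ in fatty, inflamed livers once selective autophagy of lipid droplets (lipophagy) is induced in hepatocytes. Male C57BL/6 mice (C57BL/6J in the study's methods), 8 weeks old at the start, were fed CDAHFD, a high-fat diet that lacks choline and supplies defined amino acids, a model of non-alcoholic steatohepatitis, for 6 weeks. They then received an adeno-associated virus of serotype 8 (AAV8) intravenously once, were returned to normal chow, and were analysed 2 weeks later. The lipophagy group (3 livers) carried LDTS-eLIR, in which a lipid droplet-targeting sequence (LDTS) from perilipin 1 is joined to an engineered LC3-interacting region that recruits the autophagosome. The control group (3 livers) carried LDTS-LIR mut, the same design with a mutated LC3-interacting region. Both groups thus shared the diet, the virus, the thyroxine-binding globulin promoter that limits expression to hepatocytes, and the LDTS itself, and no liver without virus or on chow alone was analysed here. Whole liver was sequenced, so that a lower level of a transcript may reflect fewer cells of a type or less RNA per cell, which cannot be told apart.

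Type I interferons (alpha and beta) signal through a receptor made of Ifnar1 and Ifnar2, and type II interferon (gamma) through Ifngr1 and Ifngr2. Kinases at the type I receptor activate the complex ISGF3, which includes Stat2 and Irf9 and binds the interferon-stimulated response element (ISRE), whereas the response to interferon gamma acts mainly through the gamma-activated site (GAS). In liver, hepatocytes, Kupffer cells and recruited macrophages can all respond to interferon, and the response is best known from viral hepatitis.

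The ISRE is visible in the DNA before the start of several of these genes. RefSeq promoter sequences (GRCm38.p6, 250 bases before to 50 bases after the annotated start) were found for 31 of the 43 genes. The ISRE core, GAAANNGAAA on either strand, was present in 17 of those 31 (54.84%), whereas it was present in 1079 of all 27025 genes with a promoter sequence (3.99%). It lay before the start in 14 of the 17 and after the start alone in the other 3 (Ddx58, Eif2ak2 and Ifih1). The stretches below show how the core is repeated, or shared between neighbours, in genes from 4 of the role groups described later. Each is written 5′ to 3′ on the strand of its gene, with the ISRE core in capitals. Capitals that begin with TTTC are the core read from the opposite strand.

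Isg15, chr4:156200860-156200911, minus strand: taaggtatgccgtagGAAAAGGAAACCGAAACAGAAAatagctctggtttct
Ifit1, chr19:34640770-34640828, plus strand: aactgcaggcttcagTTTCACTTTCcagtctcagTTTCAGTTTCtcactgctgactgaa
Ifit3, chr19:34583358-34583431, plus strand: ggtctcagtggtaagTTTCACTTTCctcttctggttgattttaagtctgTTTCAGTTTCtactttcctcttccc
Oas1a, chr5:120907526-120907560, minus strand: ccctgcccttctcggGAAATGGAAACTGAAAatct
Gbp3, chr3:142559984-142560029, plus strand: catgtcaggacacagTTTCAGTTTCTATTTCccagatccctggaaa
Igtp, chr11:58199507-58199546, plus strand: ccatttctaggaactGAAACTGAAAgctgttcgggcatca
Irgm2, chr11:58214898-58214937, plus strand: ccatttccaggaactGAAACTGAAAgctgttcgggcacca

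Isg15 holds 3 overlapping cores, whose first bases lie at -78, -72 and -66 relative to its start. Ifit1 and Ifit3 each hold 2 separate cores, and Oas1a and Gbp3 each hold 2 overlapping ones. The stretches of Igtp and Irgm2, neighbouring genes on chromosome 11, are identical at 38 of 40 bases. The GAS core, TTCNNNGAA, was present in 10 of the 31 genes (32.26%) and in 9.55% of all genes with a promoter sequence. Oas1a, Igtp, Irgm2, Bst2, Eif2ak2 and Gbp7 held both cores. A match of letters is a description of the window and not evidence that a factor was bound there in these livers.

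Across the 43 genes, levels were lower in the lipophagy livers than in the controls for 42, by a small amount each, and none passed the adjusted test. The median log2 change, lipophagy minus control on the log2(FPKM + 1) scale, was -0.26, beside a median of 0.02 over the 11493 genes tested. Of all tested genes, 45.5% had a negative change. The unadjusted limma p was below 0.05 for 20 members, all lower, and for none that was higher, beside 7.97% of all tested genes lower and 11.5% higher. For 20 members, every lipophagy liver lay below every control liver (all genes, 10.8%), and for none did every lipophagy liver lie above every control liver (all genes, 15.4%). Both held for 18 members. The shares of all tested genes given here are also the background for the counts in each group and list below. After Benjamini-Hochberg adjustment over all tested genes, 0 members were called at 0.05 in limma, the lowest adjusted p being 0.0915 (Rtp4), and 3 of all tested genes were called lower (0.0261%).

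The count of 20 rested partly on single livers. The number with an unadjusted p below 0.05 was 11 without control 3 (5.24% of all tested genes lower), 13 without lipophagy 1 (5.78%) and 24 without control 1 (7.87%). The number without overlap was 34 without control 1, where 3 livers were set against 2 and the share of all genes was 16.4%. The log2 change of 23 of the 43 members moved by over 1.5 times when some 1 liver was left out, 11 of them without control 3 and 11 without lipophagy 1. Among the members apart between the groups with an unadjusted p below 0.05, these were Stat2 (-0.16), Trim25 (-0.21) and Mx1 (-0.18) without lipophagy 1, and Oas1a (-0.22) without control 3. An exact permutation test of 3 livers against 3 cannot give a two-sided p below 0.1. The scale matters as well, since the FPKM values of the control livers summed to between 622696 and 681138 and those of the lipophagy livers to between 709993 and 782392. With every liver rescaled to the same sum, 43 of 43 members and 77.4% of all tested genes were lower and 39 members had an unadjusted p below 0.05, but the median of all tested genes then moved to -0.13 and the split of all genes with such a p from 916 lower and 1327 higher to 2506 lower and 236 higher. Against that moved median, the members' median differed by -0.31, beside -0.28 as deposited. With quantile normalization, the split of all genes was 899 lower and 745 higher, 41 of the 43 members were lower, and 29 had an unadjusted p below 0.05.

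**Figure D1:**
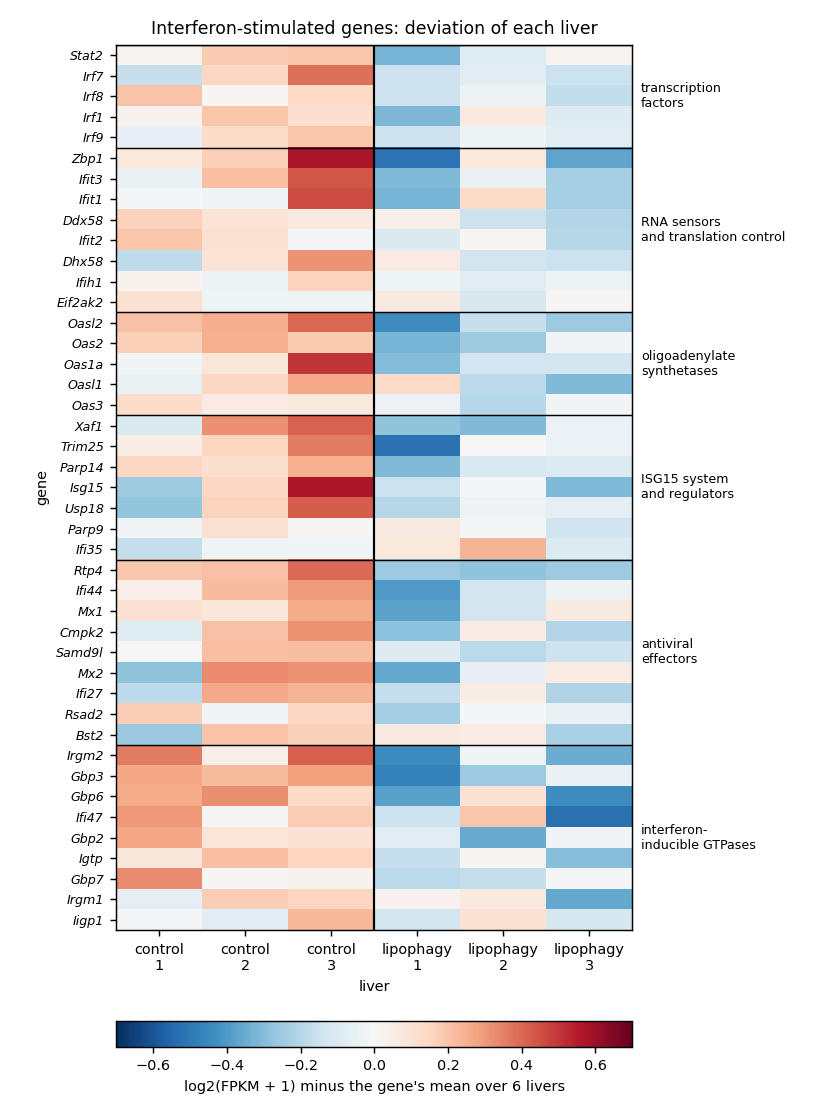
Deviation of each of the 6 livers (columns) from the mean of each of the 43 genes (rows, grouped by role), in log2(FPKM + 1), with red above and blue below the mean. Control 3 is the highest liver for 24 genes and lipophagy 1 the lowest for 20.

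Livers within a group were not alike. Of the 43 genes, 24 were highest in control 3, 9 in control 1, 9 in control 2 and 1 in lipophagy 2, whereas 20 were lowest in lipophagy 1, 11 in lipophagy 3, 7 in lipophagy 2 and 5 in control 1. The median deviation of the members from their own mean was 0.025, 0.14 and 0.23 log2 units in controls 1 to 3, and -0.19, -0.05 and -0.14 in lipophagy livers 1 to 3. The nearest livers of the 2 groups, control 1 and lipophagy 2, were thus separated by less than the 3 controls were among themselves. Control 3 exceeded control 1 for 33 of 43 members, with a median ratio of 1.17. This ratio was 1.01 in the interferon-inducible GTPases and between 1.14 and 1.27 in the other 5 role groups described below.

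**Figure D2:**
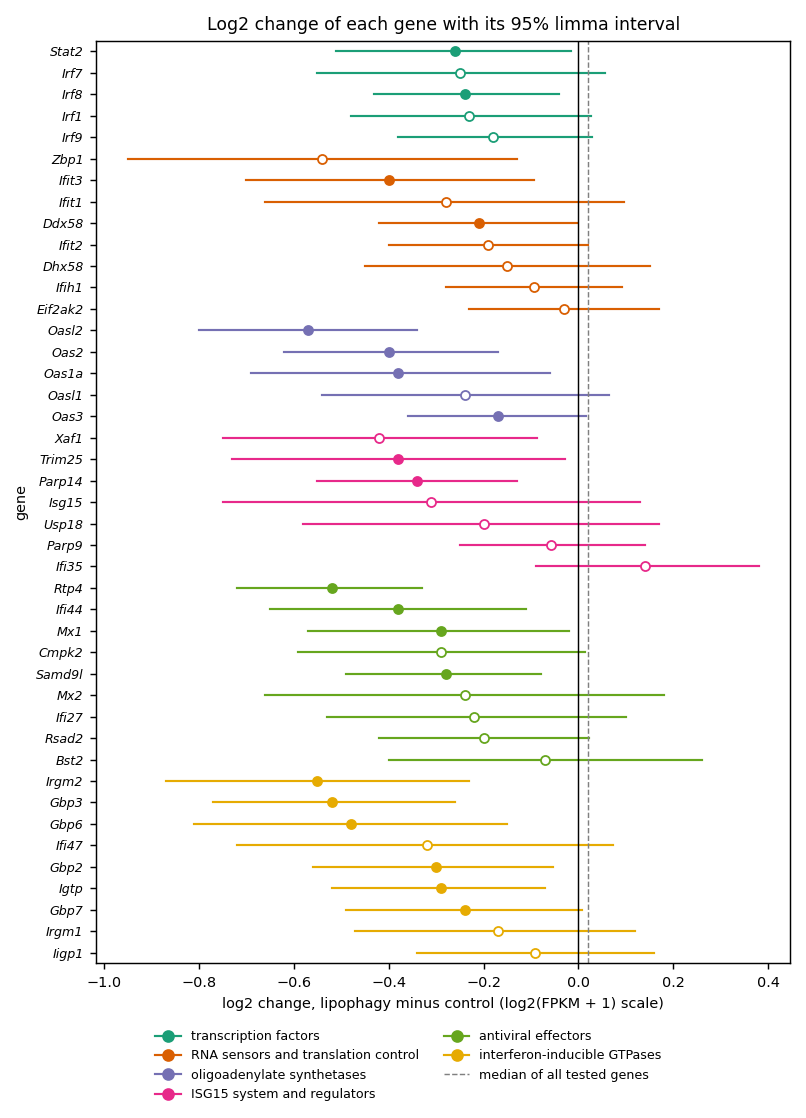
Log2 change (x axis, lipophagy minus control, log2(FPKM + 1) scale) of each of the 43 genes (y axis, coloured by role), with its 95% limma interval. Filled points mark the 20 genes whose groups did not overlap, and the dashed line the median of all tested genes (0.02). Of the 43 points, 42 lie below 0, or 41 with quantile normalization and 43 with rescaled sums.

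The transcription factors of the response carry the interferon signal into the nucleus or amplify it. All 5 were lower in the lipophagy livers (median log2 change -0.24), 2 with an unadjusted p below 0.05. Stat2, a subunit of ISGF3, measured 11.02, 12.4 and 12.6 FPKM in the controls and 8.45, 10.2 and 11.01 FPKM in the lipophagy livers. The highest lipophagy liver lay just below the lowest control, and the log2 change was -0.26 ± 0.11 (SE, limma adjusted p = 0.243). Irf8, a factor of macrophages and dendritic cells, measured 4.73, 4.06 and 4.52 FPKM in the controls and 3.52, 3.87 and 3.44 FPKM in the lipophagy livers, without overlap (-0.24 ± 0.085, adjusted p = 0.204). Irf7, which drives interferon production and is itself induced by interferon, was the most abundant of the 5, with 37.2, 46.2 and 54.7 FPKM against 37.6, 39.6 and 37.4 FPKM. Its lipophagy livers clustered tightly at the level of the lowest control, so that the difference (-0.25 ± 0.13, adjusted p = 0.331) came from controls 2 and 3. Irf9, the DNA-binding subunit of ISGF3, overlapped between the groups at control 1 and lipophagy 2, with 13.5, 15.5 and 16.2 FPKM against 12.6, 13.7 and 13.2 FPKM (-0.18 ± 0.089, adjusted p = 0.307). Irf1, an early responder to interferon gamma, overlapped between the groups as well, with 19.2 to 21.8 FPKM in the controls and 14.98 to 19.8 FPKM in the lipophagy livers (log2 change -0.23).

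RNA sensors and regulators of translation recognise foreign nucleic acid or block its translation. All 8 were lower in the lipophagy livers (median -0.20), or 7 of 8 with quantile normalization, 3 with an unadjusted p below 0.05, and the spread within this group was wide. Zbp1, a sensor of left-handed nucleic acid that can trigger cell death, measured 12.8, 13.7 and 18.5 FPKM in the controls and 8.17, 12.8 and 9.17 FPKM in the lipophagy livers. Its mean was 14.99 ± 3.06 against 10.05 ± 2.44 FPKM (SD, n = 3 each). The log2 change was -0.54 ± 0.18 (adjusted p = 0.188), and lipophagy 2 reached the level of control 1. Ifit3, one of the Ifit proteins that bind viral RNA, was apart between the groups, with 10.02, 12.2 and 14.4 FPKM against 8.2, 10.01 and 8.7 FPKM (-0.40 ± 0.13, adjusted p = 0.19). Its lowest control and highest lipophagy liver were nearly equal, and 31.7% of the 100-base windows of its transcript also occur in another gene, Ifit3b, so the split of reads between the 2 is uncertain. Ddx58, which encodes the RNA helicase RIG-I, was apart by a narrow margin, with 6.28, 5.92 and 5.79 FPKM against 5.7, 4.84 and 4.63 FPKM (-0.21 ± 0.09, adjusted p = 0.251).

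The other 5 genes of this group had an unadjusted p above 0.05 and overlapped between the groups. Ifit2 had the lowest level, with 1.5, 1.35 and 1.18 FPKM in the controls and 1.04, 1.21 and 0.907 FPKM in the lipophagy livers, and lipophagy 2 was above control 3. Eif2ak2, which encodes the kinase PKR that halts translation, differed little, with 3.24, 2.85 and 2.86 FPKM against 3.11, 2.64 and 2.95 FPKM (-0.03 ± 0.085, adjusted p = 0.87). Its sign turned with quantile normalization (0.01), without control 1 (0.016) and without lipophagy 2 (0.019). Ifit1 lay between 3.44 and 6.64 FPKM over the 6 livers, Dhx58 between 5.74 and 8.48 FPKM and Ifih1 between 7.5 and 8.95 FPKM, with log2 changes of -0.28, -0.15 and -0.093. The ISRE core was present in 5 of the 6 promoters found for this group (83.33%). In Ddx58, Eif2ak2 and Ifih1 it lay only after the start.

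Oligoadenylate synthetases make the short oligoadenylates that activate RNase L, and the Oasl proteins are relatives with antiviral roles of their own. All 5 measured were lower in the lipophagy livers, with a median of -0.38 (-0.32 with quantile normalization) and 4 of 5 without overlap between the groups. Oasl2 measured 3.61, 3.77 and 4.29 FPKM in the controls and 1.95, 2.57 and 2.35 FPKM in the lipophagy livers. Its mean was 3.89 ± 0.355 against 2.29 ± 0.317 FPKM (SD, n = 3 each), a ratio of 0.589. The gap between the groups exceeded the range within either, and the log2 change of -0.57 ± 0.10 (adjusted p = 0.103) was the most negative of the 43 on the deposited scale with all 6 livers, but not with quantile normalization, where Zbp1 was at -0.60 and Oasl2 at -0.53, nor when any 1 liver was left out. Oas2 measured 2.02, 2.19 and 2.05 FPKM against 1.15, 1.26 and 1.65 FPKM (-0.40 ± 0.097, adjusted p = 0.135), and all 3 lipophagy livers stood clear of the narrow control range.

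Oas1a, whose promoter stretch is printed above, measured 5.54, 6.01 and 8.37 FPKM in the controls and 4.37, 5.04 and 5.05 FPKM in the lipophagy livers (-0.38 ± 0.14, adjusted p = 0.211). The groups did not overlap, and control 3 stood well above the other 2 controls. Of its 100-base windows, 40.9% also occur in another gene (Oas1g), so the reads assigned to it are uncertain. Oas3 was the least abundant gene of the 43, with 0.834, 0.749 and 0.759 FPKM against 0.63, 0.464 and 0.657 FPKM, an estimated 49 to 119 fragments a liver. These groups did not overlap, but the log2 change of -0.17 ± 0.081 (adjusted p = 0.288) had an unadjusted p of 0.0678. At such levels the added 1 FPKM sets the value, and with 0.1 FPKM added the change was -0.38 for Oas3, -0.54 for Mx1, -0.33 for Ifit2 and -0.60 for Oas2. Oasl1 was the most abundant of the group and overlapped, with 10.1, 11.7 and 12.8 FPKM against 11.6, 9.14 and 8.3 FPKM (-0.24, adjusted p = 0.345). Oas1a, Oas2 and Oas3 lie in a cluster on chromosome 5 (GRCm38, 120730333 to 120907521), and Oasl1 and Oasl2 lie next to each other on the same chromosome (114896936 to 114937915).

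ISG15 is a ubiquitin-like protein that is attached to other proteins during the response, and Usp18 removes it and restrains signalling from the type I receptor. Of the 7 genes of this system and of associated regulators, 6 were lower in the lipophagy livers and 1 was higher (median -0.31), and 3 of the lower ones had an unadjusted p below 0.05. Parp14, a mono-ADP-ribosyltransferase of macrophages and lymphocytes, measured 5.02, 4.9 and 5.47 FPKM in the controls and 3.4, 4.06 and 4.1 FPKM in the lipophagy livers. Its groups were clearly apart (-0.34 ± 0.09, adjusted p = 0.148). Trim25, the ubiquitin ligase that activates RIG-I, measured 11.9, 12.8 and 15.03 FPKM against 7.66, 11.4 and 11.1 FPKM (-0.38 ± 0.15, adjusted p = 0.237). Here lipophagy 1 stood far below the other 5 livers, and the other 2 lipophagy livers lay just below control 1. Xaf1, which promotes apoptosis, measured 3.47, 4.98 and 5.37 FPKM against 2.95, 2.87 and 3.66 FPKM (-0.42 ± 0.14, adjusted p = 0.199). Here lipophagy 3 exceeded control 1.

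Isg15 itself was, with Ifi35, the most abundant of the group and one of the most variable genes among the controls. It measured 28.4, 37.6 and 50.98 FPKM in the controls and 30.5, 33.7 and 27.2 FPKM in the lipophagy livers, with means of 38.98 ± 11.4 and 30.4 ± 3.23 FPKM (SD, n = 3 each). The controls differed 1.8-fold among themselves, more than the group means did, and the log2 change was -0.31 ± 0.19 (adjusted p = 0.384). It was -0.10 without control 3 and -0.52 without control 1. Usp18 spanned 11.9 to 20.01 FPKM in the controls and 12.6 to 14.3 FPKM in the lipophagy livers (-0.20, or -0.039 without control 3). Ifi35, a leucine-zipper protein of the response, was the single member with a higher mean, with 30.0, 33.1 and 33.4 FPKM against 35.6, 40.1 and 31.6 FPKM (0.14 ± 0.10, adjusted p = 0.448). Its groups overlapped, and its sign turned when the livers were rescaled to the same FPKM sum (-0.034). Parp9 lay between 12.5 and 14.9 FPKM over the 6 livers (-0.058).

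**Figure D3:**
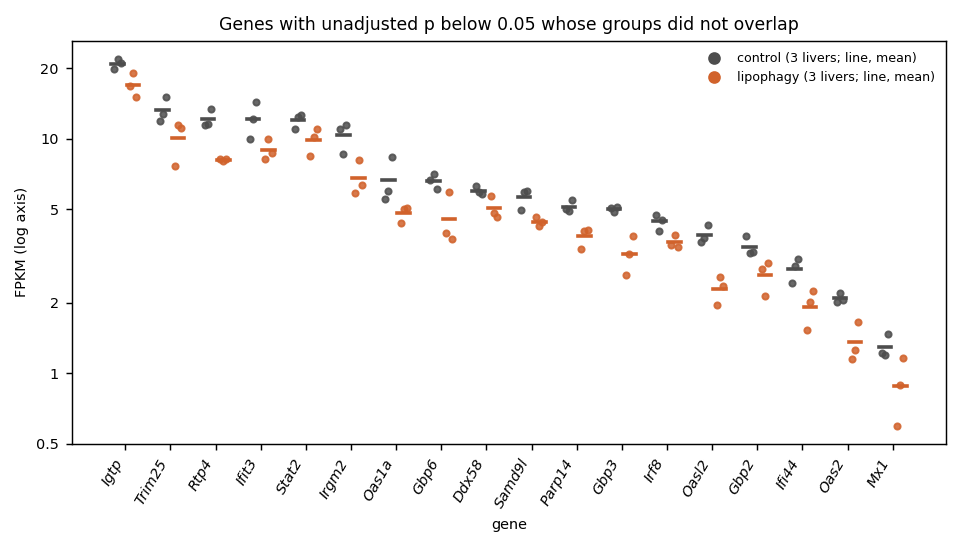
FPKM (y axis, log scale) of the 18 genes whose groups did not overlap and whose unadjusted p was below 0.05, from the most to the least abundant. Points are the 3 livers of each group (grey, control; orange, lipophagy) and lines are means. By this selection, every orange point lies below the grey points of its gene. Igtp is at the top (means of 20.96 against 16.97 FPKM) and Mx1 at the bottom (means of 1.29 against 0.882 FPKM).

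Antiviral effectors act on the virus itself, at entry, replication or release. All 9 were lower in the lipophagy livers (median -0.28), and 4 had an unadjusted p below 0.05 without overlap. Rtp4, a chaperone for receptor trafficking that also restricts RNA viruses, measured 11.5, 11.6 and 13.4 FPKM in the controls and 8.2, 8.04 and 8.19 FPKM in the lipophagy livers. Its mean was 12.2 ± 1.10 against 8.14 ± 0.0917 FPKM (SD, n = 3 each). The 3 lipophagy livers were almost identical, and the log2 change of -0.52 ± 0.084 had the lowest adjusted p of the 43 (0.0915). Of the 100-base windows of Rtp4, 11.2% also occur in Gm45338, which overlaps it on the same strand, so part of its reads cannot be assigned with certainty. Ifi44, an interferon-induced protein with antiviral activity, measured 2.43, 2.87 and 3.08 FPKM against 1.52, 2.02 and 2.23 FPKM (-0.38 ± 0.12, adjusted p = 0.171). Samd9l, a restriction factor that limits translation, measured 4.98, 5.92 and 5.96 FPKM against 4.63, 4.25 and 4.41 FPKM (-0.28 ± 0.089, adjusted p = 0.177), with control 1 nearest the lipophagy range.

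Mx1, a dynamin-like GTPase that blocks influenza virus replication, was the lowest effector, with 1.22, 1.19 and 1.47 FPKM in the controls and 0.597, 0.89 and 1.16 FPKM in the lipophagy livers (-0.29 ± 0.12, adjusted p = 0.241). Its lipophagy livers were spread over an almost 2-fold range, and the highest came close to the controls. The estimated number of fragments was 46 to 163 a liver. Inbred C57BL/6 mice are known to carry a defective Mx1 gene, so its transcript is read here only as a transcript. Bst2, which encodes tetherin that holds budding virions at the cell surface, was the most abundant of all 43 genes, with 381, 525 and 512 FPKM against 477, 474 and 390.4 FPKM. The lipophagy livers lay within the control range (-0.07 ± 0.15, adjusted p = 0.811), and its sign turned without control 2 (0.013) or without lipophagy 3 (0.025). Cmpk2, Mx2, Ifi27 and Rsad2, the last of which encodes viperin, had log2 changes between -0.29 and -0.20 and an unadjusted p above 0.05. Over the 6 livers, Cmpk2 lay between 1.43 and 2.68 FPKM, Mx2 between 1.85 and 3.6 FPKM, Rsad2 between 1.77 and 2.68 FPKM, and Ifi27 between 148 and 206 FPKM.

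Interferon-inducible GTPases coat and disrupt the vacuoles of intracellular pathogens and respond mainly to interferon gamma. All 9 were lower in the lipophagy livers (median -0.30), 5 with an unadjusted p below 0.05 and 6 without overlap. Irgm2 measured 11.0, 8.63 and 11.5 FPKM in the controls and 5.87, 8.16 and 6.36 FPKM in the lipophagy livers, with means of 10.4 ± 1.55 and 6.8 ± 1.21 FPKM (SD, n = 3 each). Its log2 change of -0.55 ± 0.14 (adjusted p = 0.141) came with control 2 and lipophagy 2 close to each other. Its neighbour Igtp, whose promoter stretch is nearly the same, measured 19.9, 21.9 and 21.04 FPKM against 16.8, 19.03 and 15.1 FPKM (-0.29 ± 0.096, adjusted p = 0.186). The 2 genes overlap on the same strand of chromosome 11 (58199556 to 58222782), and 5.7% of the 100-base windows of Igtp also occur in Irgm2, so part of the reads cannot be assigned with certainty.

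The guanylate-binding proteins, larger GTPases of the same response, lie on 2 chromosomes. On chromosome 3 (142530342 to 142638008), Gbp3 measured 5.05, 4.86 and 5.12 FPKM in the controls and 2.62, 3.21 and 3.86 FPKM in the lipophagy livers (-0.52 ± 0.11, adjusted p = 0.134). The controls were nearly equal and all lipophagy livers lay well below them. Gbp2 measured 3.83, 3.26 and 3.3 FPKM against 2.79, 2.14 and 2.95 FPKM (-0.30 ± 0.11, adjusted p = 0.205). Gbp7, the least abundant GTPase, measured 2.46, 1.77 and 1.8 FPKM against 1.42, 1.46 and 1.73 FPKM, apart by a small margin with an unadjusted p of 0.055 (-0.24 ± 0.11, adjusted p = 0.265), and 10.2% of its windows also occur in Gbp3 or Gm43802. On chromosome 5, Gbp6 measured 6.7, 7.06 and 6.08 FPKM against 3.95, 5.9 and 3.75 FPKM (-0.48 ± 0.14, adjusted p = 0.17). Lipophagy 2 nearly reached control 3, and 51.3% of the windows of Gbp6 also occur in Gbp8, Gbp10, Gbp11 or Gm43302, so that its level cannot be separated from theirs with certainty.

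Iigp1, an effector against intracellular parasites, was the most abundant GTPase and differed little, with 118, 113 and 139.9 FPKM in the controls and 109, 128 and 110.5 FPKM in the lipophagy livers (-0.092 ± 0.11, adjusted p = 0.655). Estimated fragment numbers were high (7716 to 14203 for Iigp1). The small differences of Bst2 and Iigp1 depended on the scale, since they were -0.25 and -0.27 with rescaled sums and -0.28 and -0.25 with quantile normalization. Irgm1 (20.9 to 30.7 FPKM over the 6 livers) and Ifi47 (12.2 to 22.4 FPKM) overlapped between the groups, with log2 changes of -0.17 and -0.32. Without lipophagy 3 these were -0.039 and -0.14, and without lipophagy 2 that of Ifi47 was -0.50. The ISRE core was present in 6 of the 7 GTPase promoters found (85.71%). Over all role groups, the 17 genes with an ISRE core had a median log2 change of -0.26 (-0.55 to -0.03), and the 14 with a promoter sequence and no core had the same median of -0.26 (-0.57 to 0.14).

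The ligands of the response were almost undetected. Of 21 interferon genes listed, 18 stood at 0 FPKM in all 6 livers and none passed the filter. Ifnb1 was listed at 0.0627 FPKM in control 1 alone, Ifng at 0.108 FPKM in control 1 and 0.155 FPKM in lipophagy 3, and Ifnk at 0.0452 FPKM in control 3 and 0.0622 FPKM in lipophagy 3. A difference in interferon transcripts between the groups was not detectable at this depth.

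Most genes of the receptors and the JAK-STAT pathway were lower. Of 16 genes listed, 15 were tested, and 12 were lower and 3 higher (median -0.079), 4 of them lower with an unadjusted p below 0.05. With every liver rescaled to the same sum, where 77.4% of all tested genes were lower, all 15 were lower (median -0.24). The chain of the gamma receptor that binds the ligand, Ifngr1, measured 13.1, 13.4 and 12.8 FPKM in the controls and 9.69, 11.1 and 10.05 FPKM in the lipophagy livers, without overlap (-0.32 ± 0.08, adjusted p = 0.135). The second chain, Ifngr2, differed by -0.031, and the type I receptor chains Ifnar1 and Ifnar2 by -0.048 and -0.004. Il10rb, the chain shared with the type III receptor, differed by -0.15 (adjusted p = 0.358) without overlap, and Ifnlr1, at 0.09 and 0.0436 FPKM, was under the filter. The most negative change of the list was that of Socs3, a feedback inhibitor of cytokine signalling that responds to interleukin-6, with 8.78, 13.8 and 28.4 FPKM against 2.67, 3.75 and 4.31 FPKM (-1.84 ± 0.35, adjusted p = 0.118). The most positive was that of the phosphatase gene Ptpn2 (0.13, adjusted p = 0.388).

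Among genes that sense nucleic acid and induce interferon, 16 of 20 listed were tested, and 12 were lower and 4 higher (median -0.10). The unadjusted p was below 0.05 for 3 lower and 2 higher genes (all tested genes, 7.97% lower and 11.5% higher). With rescaled sums these were 9 lower and 0 higher (all tested genes, 21.8% lower), and with quantile normalization 3 lower and 0 higher (7.82% lower). Tmem173, which encodes the DNA-sensing adaptor STING, had the most negative change, with means of 1.99 and 1.30 FPKM (-0.38 ± 0.083, adjusted p = 0.134) and no overlap. The most positive was that of the kinase gene Ikbke, with 9.39 and 13.4 FPKM and overlapping groups (0.43 ± 0.19, adjusted p = 0.254).

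A further 84 interferon-stimulated genes outside the 43 were listed as well, of which 73 were tested. Of these, 65 were lower and 8 higher, with a median of -0.23, and all 73 were lower with rescaled sums (all tested genes, 77.4%). The unadjusted p was below 0.05 for 30 lower genes (all tested genes, 7.97%) and for no higher one. Without overlap were 36, all of them lower (all tested genes, 10.8%). The most negative was Gbp11, with 11.7, 4.34 and 8.66 FPKM in the controls and 0.886, 2.24 and 1.41 FPKM in the lipophagy livers (-1.83 ± 0.31, adjusted p = 0.103), a change far outside the range of the others and in a gene that shares windows with Gbp6. The most positive was Gm4951, with means of 23.4 and 25.7 FPKM (0.12, adjusted p = 0.399).

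**Figure D4:**
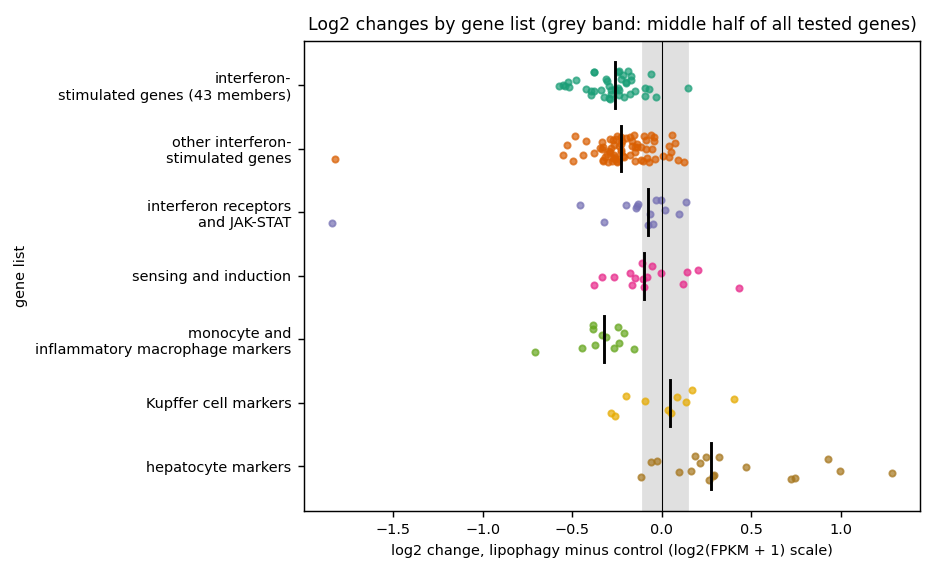
Log2 changes (x axis, lipophagy minus control, log2(FPKM + 1) scale) of the tested genes of 7 lists (y axis), 1 point a gene, with the list's median as a black bar and the central range of all tested genes shaded. The medians lie at -0.26 for the 43 interferon-stimulated genes, -0.23 for the further 73 and -0.32 for monocyte and inflammatory macrophage markers. Those of Kupffer cell and hepatocyte markers lie at 0.044 and 0.27. With rescaled sums that of Kupffer cell markers was -0.12, beside -0.13 for all tested genes.

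Markers of the cells that could carry these transcripts were compared as well, and none passed the adjusted limma test (lowest adjusted p = 0.0832, a hepatocyte marker). All 12 markers of monocytes and inflammatory macrophages were lower in the lipophagy livers (median -0.32), 7 with an unadjusted p below 0.05. Their summed level was 615 to 941 FPKM in the controls and 564 to 806 FPKM in the lipophagy livers, and without Spp1, which other liver cells also express, 484 to 706 against 477 to 619.8 FPKM. Kupffer cell markers, of which 10 were tested, were divided, 4 lower and 6 higher (median 0.044), with summed levels of 278 to 308 against 257 to 291 FPKM. With rescaled sums their median was -0.12 and 9 of 10 were lower, beside -0.13 and 77.4% lower over all tested genes. Of the conventional dendritic cell markers, 4 of 10 were tested and 3 were lower, with sums of 13.4 to 15.9 against 10.1 to 12.7 FPKM. The largest part of these sums was Cd24a (means of 5.86 and 3.76 FPKM, overlapping groups), and Clec9a was higher (0.063). Plasmacytoid dendritic cells are known as strong producers of type I interferon. Their markers summed to between 57.7 and 183 FPKM in the controls and between 27.6 and 70.5 FPKM in the lipophagy livers. Most of that was Ly6d, with 54.8, 179.7 and 137 against 26.03, 68.4 and 38.1 FPKM. The marker Siglech lay between 0.225 and 0.542 FPKM. Of the 9 plasmacytoid markers 2 were tested, and they went opposite ways, Tcf4 at 0.027 and Ly6d at -1.42 (adjusted p = 0.186), the latter with overlapping groups.

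Hepatocyte markers went the other way, 15 of 18 being higher in the lipophagy livers (median 0.27), 7 with an unadjusted p below 0.05, with summed levels of 89723 to 99197 against 105940.3 to 134998 FPKM. With rescaled sums 13 of 18 were higher (median 0.09), and with quantile normalization 12 of 18 (median 0.07). In each of these scalings 2 were higher and 1 lower with an unadjusted p below 0.05. T and NK cell markers, 5 of 17 tested, had a median of 0.0018, and the 3 tested B cell markers a median of -0.12. The 3 tested neutrophil markers had a median of -0.37 and all were lower. Stellate cell markers were lower for 9 of 12 (median -0.18), all 6 tested bile duct markers were lower (median -0.50; 5 of 6 with quantile normalization), and 9 of 12 endothelial markers were higher (median 0.085, or -0.05 with rescaled sums). No marker of these lists stood at 0 in all 6 livers. The part of these cell types in the lower levels of the interferon-stimulated genes was not tested.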

How the data were processed

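Liver RNA of 3 control and 3 lipophagy livers was sequenced as stranded poly(A) libraries, 100-base paired ends. The authors deposited 1 table of FPKM values per gene, with no counts. The submitters' processing notes name TopHat2 2.0.13, Bowtie2 2.2.3, SAMtools 0.1.19, Cufflinks 2.2.1 and mm10, and the annotation is not given in the sources used here. FPKM is relative to each liver's own total, so a shift in a few abundant genes moves all others. Depth, estimated from the steps of low FPKM values and in units of 1000000 fragments, ranged from 23.4 (lipophagy 2) to 34.76 (control 3). In these steps, 70.0% to 77.2% of low values fell within 0.1 of a whole fragment, so fragment numbers are estimates and no count test was run.

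The 11493 genes whose mean reached 0.5 FPKM were fitted with limma 3.58.1 in R 4.3.3 (trend, log2(FPKM + 1), no covariate), adjusted by the Benjamini-Hochberg method. All tests were two-sided, and adding 1 FPKM understates the change of low genes. The script was tested on simulated data. Members and gene lists were chosen with earlier results of these data known. Each member was given liver by liver if its groups did not overlap, its unadjusted p was below 0.05, or it was the highest, the lowest or the most changed (in either direction) of its role group, and others by range. In the other pathway lists, the genes with the most positive and most negative change were named, with the receptors. One further gene of the pathway is not reported here. Ifnb1, Ifng, Ifnk, Siglech, Tcf4, Ly6d, Cd24a, Clec9a and Spp1 fell outside that rule and were named after their values were seen. The labels do not tie each library to its own mouse, so the p-values measure the spread between these libraries. Shared 100-base windows and positions were taken from GENCODE M21 (GRCm38), the build the notes name as mm10, and promoters from RefSeq GRCm38.p6. Alternatives covered pseudocount, filter, scaling, trend, a replicate block and leaving out each liver. No pair of livers held identical values, with Spearman correlations between 0.979 and 0.982.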

Additional observations from a re-analysis of the deposited data

How the results depend on the processing

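With every liver rescaled to a sum of 1000000, 104 of all genes (3 as deposited) and 2 members passed the adjusted test. The 2 members were Oasl2 (log2 change -0.77, adjusted p = 0.0406) and Rtp4 (-0.71, adjusted p = 0.0248). In this setting 39 members were lower with an unadjusted p below 0.05 (21.8% of all genes) and 35 were lower without overlap (27.2% of all genes). The members' median was -0.44, and Ifi35 turned to -0.034. Quantile normalization gave 29 members with an unadjusted p below 0.05 (all genes lower, 7.82%) and 26 without overlap (10.2% of all genes), all lower. It turned Eif2ak2 to 0.01. Pseudocounts of 0.1 and 0.5 FPKM gave medians of -0.33 and -0.30. With no filter 17185 genes were tested, and 19 members were lower with an unadjusted p below 0.05 (all genes, 7.76%). Leaving out 1 liver at a time, 11 to 24 members were lower with an unadjusted p below 0.05 (all genes, 5.24% to 8.2%). Those lower without overlap numbered 21 to 34 (34 without control 1, all genes 14.3% to 18.5%). Those higher by either measure numbered 0 to 1 (1, Ifi35, without lipophagy 3), and the members' median lay between -0.33 and -0.22. No member passed the adjusted test when a liver was left out, the lowest adjusted p of a member then lying between 0.0672 and 0.336. Over the other settings it lay between 0.0248 and 0.18. Eif2ak2 lay between -0.068 and 0.019 without 1 liver, turning to 0.016 without control 1 and to 0.019 without lipophagy 2, and Bst2 to 0.013 without control 2 and to 0.025 without lipophagy 3. Replicate numbers were shared between the groups, but same-numbered livers correlated in their deviations at 0.25, 0.234 and -0.0565, so the numbers were not taken as pairs. With the replicate block, 22 members were lower with an unadjusted p below 0.05 (all genes, 7.93%). In that setting 0 members passed the adjusted test, beside 43 of all genes. The cause of these shifts was not tested. Depth limits Mx1, Oas3 and Ifit2 most.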

Other observations

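The coefficient of variation of FPKM over the 3 control livers was highest for Mx2 (29.7%) and Isg15 (29.1%), beside a median of 10.8% over the 43 genes. In the lipophagy livers the median was 12.4%.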
